A study of Homo sapiens with 3 samples.

Results

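The peaks described here lie across the centromere of human chromosome 9, between 38 and 72 Mb of hg19. This stretch of 34 Mb was chosen by the number of peaks per 1 Mb window in these same lists. They come from chromatin immunoprecipitation and sequencing (ChIP-seq) for p53 in VCaP, an established line of prostate cancer cells whose own p53 has the R248W substitution. A peak belonged to the region when its summit, the base of highest coverage, lay inside it. That gave 1468 of the 35740 peaks listed in all: 17 of 433 in the ERG shRNA 2 library, 626 of 17321 in the ERG shRNA library and 825 of 17986 in the luciferase shRNA library. Because peak counts chose the region, its counts and densities are descriptions and carry no test.

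The series compared cells in which ERG, an ETS family transcription factor, was targeted by shRNA with cells that carried an shRNA to luciferase, a gene human cells lack. ERG was targeted with an ERG shRNA numbered 2 in 1 library and with an ERG shRNA without a number in another. All 3 libraries are of the same cell line and share the p53 substitution, and none is of untreated cells. The labels name the p53 antibody DO-1 for the ERG shRNA and luciferase shRNA libraries, and the label of ERG shRNA 2 names none. At least 3 immunoprecipitations went into each library as a pool, which makes each group 1 sample without a replicate check. No test between groups is possible, and intervals given below cover counting error within a library only. ERG levels were not analysed here.

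p53 is a sequence-specific transcription factor and tumour suppressor, and R248W is a hotspot substitution in the part of the protein that touches DNA. The centromere of chromosome 9 is flanked by large segmental duplications, long blocks of sequence copied several times with few differences and in both orientations. These blocks carry gene families such as SPATA31A (spermatogenesis-associated), FOXD4 (forkhead transcription factors), CNTNAP3 (contactin-associated cell adhesion proteins), ANKRD20A (ankyrin repeat proteins) and ZNG1 (GTPases that deliver zinc). A short sequencing tag from such a block can match more than 1 copy, so the copy it came from is uncertain.

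The promoters of 3 SPATA31A genes are shown because they let a reader see how alike these copies are. They are RefSeq sequences of GRCh38.p14, a build other than that of the peaks, and no peak was placed on a gene. SPATA31A5 is at chr9:60914157-60914456 on the plus strand, SPATA31A7 at chr9:61189786-61190085 on the plus strand and SPATA31A3 at chr9:66992501-66992800 on the minus strand. Capitals mark the positions at which the copies differ.
SPATA31A5: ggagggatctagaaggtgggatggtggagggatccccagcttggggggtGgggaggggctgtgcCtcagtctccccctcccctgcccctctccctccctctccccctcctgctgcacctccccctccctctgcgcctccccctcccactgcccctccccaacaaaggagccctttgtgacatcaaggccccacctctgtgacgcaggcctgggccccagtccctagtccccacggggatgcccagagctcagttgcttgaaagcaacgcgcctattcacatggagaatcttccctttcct
SPATA31A7: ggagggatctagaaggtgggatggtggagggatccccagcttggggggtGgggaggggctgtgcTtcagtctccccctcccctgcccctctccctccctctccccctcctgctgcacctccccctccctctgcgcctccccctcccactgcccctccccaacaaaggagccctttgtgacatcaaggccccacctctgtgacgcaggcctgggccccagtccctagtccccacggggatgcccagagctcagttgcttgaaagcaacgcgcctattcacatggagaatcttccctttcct
SPATA31A3: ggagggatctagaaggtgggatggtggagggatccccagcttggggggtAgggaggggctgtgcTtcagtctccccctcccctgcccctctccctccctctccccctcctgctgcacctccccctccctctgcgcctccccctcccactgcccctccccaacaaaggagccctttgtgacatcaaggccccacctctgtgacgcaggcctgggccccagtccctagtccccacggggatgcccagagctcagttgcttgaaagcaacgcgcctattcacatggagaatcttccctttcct
Counted from 1 at the 5′ end of each printed strand, SPATA31A7 differs from SPATA31A5 by C65T, and SPATA31A3 differs from SPATA31A7 by G50A. The tags were 83 or 84 bases long per the file headers, and of the 218 stretches of 83 bases in these 300-base windows, 168 are identical between SPATA31A7 and SPATA31A3. The gene table of that build lists 5 SPATA31A, 5 FOXD4, 12 CNTNAP3, 6 ANKRD20A and 5 ZNG1 entries on chromosome 9, counted by the start of the symbol and with pseudogenes included.

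The libraries differ in depth and in how their lists were made, which bears on every comparison between them. The headers gave 52175068 tags for ERG shRNA 2, 4853617 for ERG shRNA and 9258451 for luciferase shRNA, with 14360465 input tags in each. The deepest library has the shortest list. Within each list the deposited pileup (overlapping extended tags at the summit) and fold enrichment (pileup over local background) describe and rank peaks, and they were not compared between lists as amounts of p53.

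The peaks formed a pair of clusters, one on each side of the centromere. On the short-arm side, between 38 and 48 Mb, lay 4 ERG shRNA 2, 346 ERG shRNA and 478 luciferase shRNA peaks. On the long-arm side, between 65 and 72 Mb, lay 13 ERG shRNA 2, 280 ERG shRNA and 347 luciferase shRNA peaks. No library had a peak between 48 and 65 Mb, so 17 of the 34 windows of 1 Mb held peaks and 17 held none. The region held 89.5% of the ERG shRNA 2 peaks of chromosome 9, 50.3% of the ERG shRNA peaks and 52.7% of the luciferase shRNA peaks.

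Peak density in the region was several times that on the other 108 Mb of the chromosome in each library. ERG shRNA 2 had 0.5 peaks per Mb in the region and 0.0185 on the rest of chromosome 9, a ratio of 27 that rests on only 2 peaks outside the region. Against all other main chromosomes the ERG shRNA 2 ratio was 3.77. ERG shRNA had 18.4 and 5.73 peaks per Mb, a ratio of 3.21, and luciferase shRNA had 24.3 and 6.85, a ratio of 3.54. Counted over windows with a peak, the ratios were 6.37 in ERG shRNA and 7.02 in luciferase shRNA. Among peaks with a −log10 q of at least 5, the ratio was 1.31 in ERG shRNA (0.648 to 2.50) and 3.47 in luciferase shRNA (2.09 to 5.80). The ERG shRNA ratio is thus lower than that of all its peaks, while the luciferase shRNA ratio is close to that of all its peaks. Density chose the region, so these ratios and intervals are descriptions and no test of equal density.

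**Figure D1:**
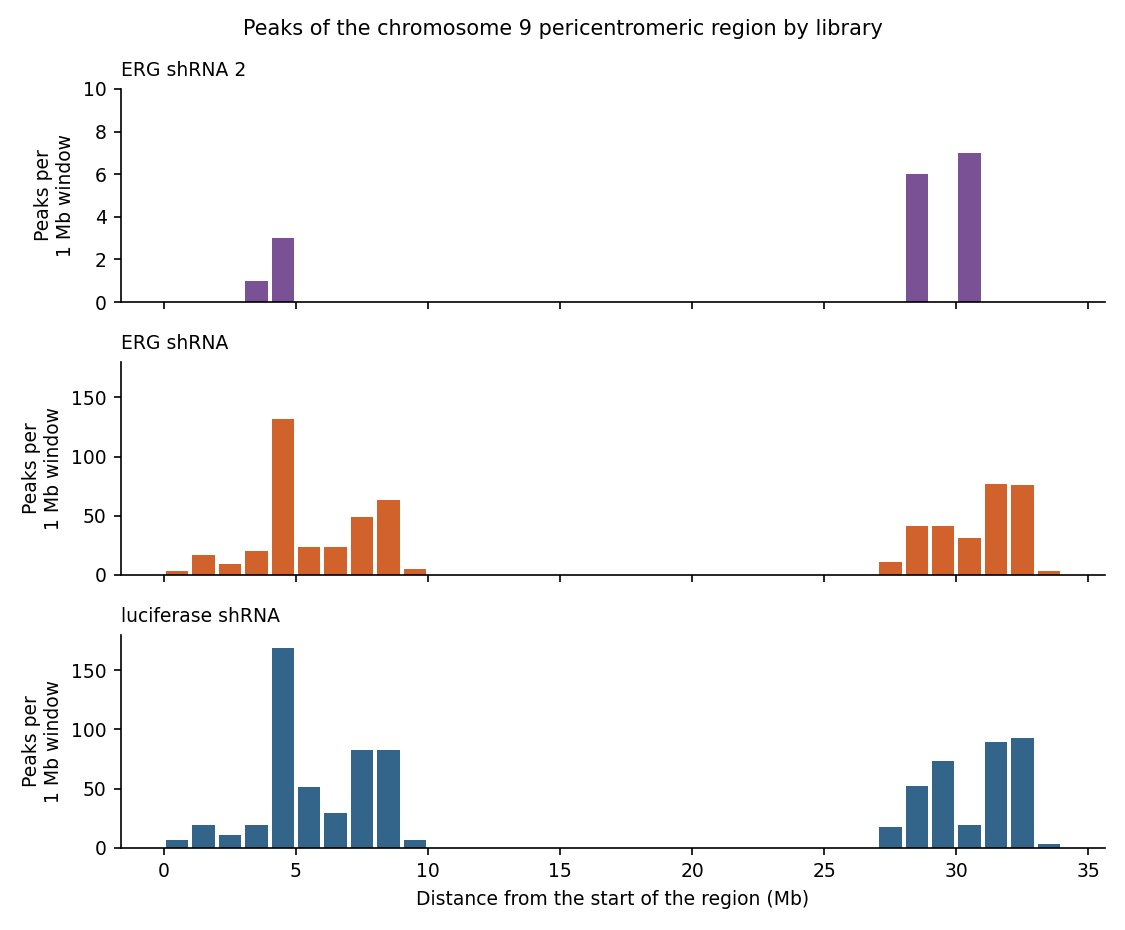
Number of peaks in each 1 Mb window (vertical axis) against distance from the start of the region in Mb (horizontal axis), for ERG shRNA 2, ERG shRNA and luciferase shRNA from top to bottom; the top panel has its own scale. ERG shRNA and luciferase shRNA share a tallest bar, with 132 and 169 peaks, and all 3 panels are empty across the centromere.

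The window at 42 to 43 Mb was the fullest in both long lists. It held 3 ERG shRNA 2, 132 ERG shRNA and 169 luciferase shRNA peaks. The next windows on the same side, at 45 to 46 and 46 to 47 Mb, held 49 and 63 ERG shRNA peaks against 83 luciferase shRNA peaks each. On the other side, the windows at 69 to 70 and 70 to 71 Mb held 77 and 76 ERG shRNA peaks against 89 and 93 luciferase shRNA peaks. Together the 8 windows of the region with at least 30 peaks held 510 of the 626 ERG shRNA peaks, and the 8 such luciferase shRNA windows held 693 of 825. Outside the region, the fullest chromosome 9 window held 17 ERG shRNA peaks, and the fullest in luciferase shRNA held 32.

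The long lists filled the windows in a similar order, with ERG shRNA below luciferase shRNA in most. ERG shRNA had fewer peaks in 14 of the 17 windows, more in 2 and the same number in 1. The ratio of ERG shRNA to luciferase shRNA peaks was lowest at 38 to 39 Mb, 0.429 with 3 against 7 peaks, and next lowest at 43 to 44 Mb, 0.471 with 24 against 51 peaks. It was highest at 68 to 69 Mb, 1.63, with 31 ERG shRNA and 19 luciferase shRNA peaks. That window also held 7 of the 17 ERG shRNA 2 peaks, more than any other. Over the whole region the ratio is 626 to 825 peaks, and the difference in tags between the libraries moves in the same direction; its part in the ratio was not tested.

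The edges of the region are not sharp boundaries in the data. The first ERG shRNA peak inside the region is at chr9:38782428-38782629 (pileup 4, fold 3.93) and the nearest below it at chr9:37670603-37670746 (pileup 5, fold 4.48). The last inside is at chr9:71955378-71955492 (pileup 5, fold 4.58), and the nearest above at chr9:72032038-72032152 (pileup 4, fold 3.74). In luciferase shRNA the peaks just inside have folds of 3.60 and 4.86, and those just outside 4.40 and 4.51. The outermost ERG shRNA 2 peaks inside start at 41956687 and 68481258, and its nearest peak above starts at 73897118.

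Peaks of the region lay close together, often in runs. The median distance between neighbouring summits was 26.2 kb in ERG shRNA 2, 6.21 kb in ERG shRNA and 4.81 kb in luciferase shRNA. On the rest of chromosome 9 it was 98.3 kb in ERG shRNA and 74.1 kb in luciferase shRNA. In ERG shRNA 59.2% of neighbouring summits lay within 10 kb of each other, and in luciferase shRNA 68.3%, against 15.0% and 18.0% on the rest of the chromosome. With both long lists joined and neighbours within 10 kb chained, the 1451 peaks fell into 298 runs. Of these, 126 were single peaks, and 40 runs with at least 10 peaks held 841 peaks, more than all other runs together.

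Of the 5 runs with most peaks, 3 lay in or reached out of the 42 to 43 Mb window. The run with most peaks was chr9:42897099-43024517, where 127 kb held 30 ERG shRNA and 38 luciferase shRNA peaks, of which 4 ERG shRNA peaks were overlapped by a luciferase shRNA peak. Next came chr9:42473861-42612684 with 23 ERG shRNA and 36 luciferase shRNA peaks. The run at chr9:46600328-46718790 held 18 ERG shRNA and 32 luciferase shRNA peaks, and 1 of the ERG shRNA peaks was overlapped. The run at chr9:42664331-42744566 held more ERG shRNA than luciferase shRNA peaks, 23 against 18. The run at chr9:66915216-66966050 on the long-arm side was the most compact of the 5, with 19 ERG shRNA and 20 luciferase shRNA peaks in 50.8 kb, and 3 ERG shRNA 2 peaks lay in it. There 9 of the 19 ERG shRNA peaks were overlapped by a luciferase shRNA peak. In the runs at chr9:42473861-42612684 and chr9:42664331-42744566, 5 and 7 of 23 were. These counts are small, and the overlapped share of the whole ERG shRNA list is 14.0%. Differences between runs were not tested.

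Taken singly the peaks were low, and in both long lists the medians were close to those on the rest of chromosome 9. The median pileup was 9.36 in ERG shRNA 2, 5 in ERG shRNA and 6 in luciferase shRNA. On the rest of chromosome 9 it was 7.30, 4 and 6, where ERG shRNA 2 has only 2 peaks. The whole-list medians were 15.96, 5 and 6, so the ERG shRNA 2 peaks of the region were low for that list. The median width was 208, 121 and 180 bp, against 197, 115 and 161 bp outside. The share of peaks at the smallest width a list can hold, the extension length of its tags, was 47.1% in ERG shRNA (43.2 to 51.1), against 58.5% (54.5 to 62.4) outside. In luciferase shRNA it was 34.5% (31.3 to 37.9), against 42.8% (39.2 to 46.5). Peaks of the smallest width were thus rarer in the region than outside in both long lists, with intervals of this share that do not overlap. The whole lists had 54.9% and 40.3%. Low shares were also seen in the duplicated stretches of chromosome 1 at 142 to 150 Mb and chromosome 5 at 68 to 71 Mb. They were 47.7% and 49.4% in ERG shRNA, and 32.2% and 28.2% in luciferase shRNA. The median folds of 4.18 and 4.45 were close to the 4.14 and 4.26 outside.

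How the high peaks of the region compared with those outside depended on the measure. A fold of at least 5 was reached by 13.1% of ERG shRNA peaks (10.6 to 16.0), against 14.7% (12.0 to 17.7) on the rest of chromosome 9, with intervals that overlap. In luciferase shRNA it was reached by 26.1% (23.1 to 29.2), against 20.9% (18.1 to 24.1). Of the whole lists, 17.4% of ERG shRNA and 26.0% of luciferase shRNA peaks reached it. The region's share was thus below that of the whole list in ERG shRNA and near it in luciferase shRNA. The highest fold in the region was 5.54 in ERG shRNA 2, 8.29 in ERG shRNA and 9.78 in luciferase shRNA, against 5.09, 13.6 and 16.6 on the rest of chromosome 9. A −log10 q of at least 5 was reached by 14 ERG shRNA peaks of the region, 2.24% (1.23 to 3.72), against 34 peaks, 5.49% (3.83 to 7.59), on the rest of the chromosome and 5.99% of the whole list. In luciferase shRNA 35 peaks, 4.24% (2.97 to 5.85), reached it in the region, against 32 peaks, 4.32% (2.98 to 6.05), outside and 6.65% of the whole list. In ERG shRNA 2 no peak of the whole list reached it. A q of at most 0.05 was reached by 2 ERG shRNA 2, 445 ERG shRNA and 674 luciferase shRNA peaks of the region. As shares these are 11.8%, 71.1% and 81.7%, beside 8.31%, 72.6% and 79.8% of the whole lists.

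The local background that the peak caller set against each peak was recovered from pileup and fold and divided by the list's genome-wide background, its lowest possible value. Its median was 2.44 in ERG shRNA 2, 1.33 in ERG shRNA and 1.27 in luciferase shRNA. On the rest of chromosome 9 it was 1.43 in ERG shRNA and 1.27 in luciferase shRNA. In ERG shRNA 2, 10 of the 17 peaks sat where the background was over 2 times the genome-wide level. The median of the whole ERG shRNA 2 list was 5.27 (quartiles 1.64 and 8.34), so the region's median was low for that list. In ERG shRNA 33.7% of peaks (30.01 to 37.6) were at the genome-wide level, against 25.7% (22.3 to 29.3) on the rest of chromosome 9 and 34.0% of the whole list. In luciferase shRNA they were 36.2% (33.0 to 39.6), against 22.7% (19.7 to 25.9) and 32.4%. In both long lists the background was thus no higher in the region than on the rest of the chromosome.

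**Figure D2:**
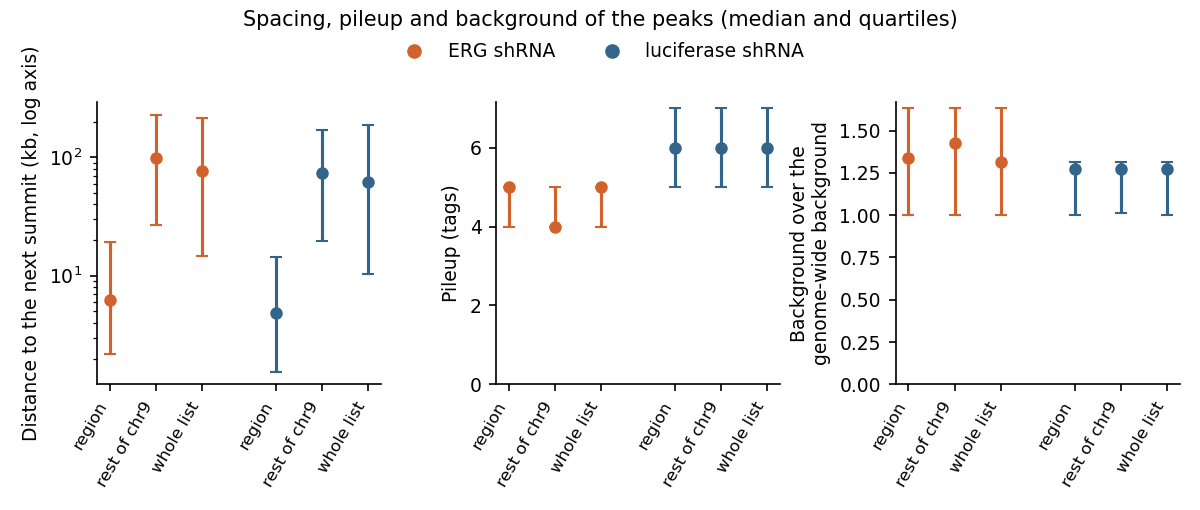
Median (point) and quartiles (bars) of the distance to the next summit in kb (log axis), the pileup in tags and the background relative to the genome-wide background, for peaks of the region, of the rest of chromosome 9 and of the whole list in ERG shRNA and luciferase shRNA. Spacing differs most, with medians of 6.21 and 4.81 kb in the region against 98.3 and 74.1 kb outside, while pileup and background lie close together.

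Although both long lists crowd into the same windows, most peaks were not at the same place in both. At least 1 bp of a luciferase shRNA peak overlapped 97 of the 626 ERG shRNA peaks of the region, 15.5% (12.7 to 18.6), beside 14.0% of the whole list. An ERG shRNA peak overlapped 96 of the 825 luciferase shRNA peaks, 11.6% (9.53 to 14.0), beside 13.5% of the whole list. On the rest of chromosome 9 these shares were 11.6% (9.21 to 14.4) and 9.59% (7.57 to 11.9). The region's shares are near those of the whole lists, so the overlap of its peaks is not a result about the region. Each header gave the same number of input tags, so the lists may also share their control library.

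The overlapped share of ERG shRNA peaks varied between windows, which was not tested. In the 8 windows with at least 30 ERG shRNA peaks 87 of 510 were overlapped, 17.1% (13.9 to 20.6), and in the 9 with fewer 10 of 116 were, 8.62% (4.21 to 15.3). These intervals overlap. Most of the fuller windows also held more luciferase shRNA peaks than the others, and the part of that in the shares was not tested. Among the fuller windows it was 29.3% at 66 to 67 Mb, where 12 of 41 peaks were overlapped, and 20.5% at 42 to 43 Mb, where 27 of 132 were. At 67 to 68 and 70 to 71 Mb it was 24.4% and 19.7%. At 68 to 69 and 69 to 70 Mb it was 12.9% and 11.7%. At 45 to 46 and 46 to 47 Mb it was 10.2% and 7.94%. Where peaks overlapped, the ERG shRNA peak usually had fewer tags, in a library of 4853617 tags against 9258451 in luciferase shRNA. The part of depth in this difference was not tested. Of the 97 overlapped ERG shRNA peaks, the pileup was lower than in the luciferase shRNA peak for 80, equal for 11 and higher for 6, with medians of 5 and 7 tags. Their summits lay a median of 61 bp apart (quartiles 27 and 117), less than the width of a median peak.

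Among ERG shRNA peaks the overlapped share climbed less with peak strength in the region than elsewhere, a difference in course that was not tested. With a fold under 4, luciferase shRNA peaks overlapped 29 of 201 in the region, 14.4% (9.88 to 20.1). On the rest of chromosome 9 they overlapped 8 of 231, 3.46% (1.51 to 6.71), and in the whole list 7.12% (6.45 to 7.83). Among ERG shRNA peaks with a fold of 6 or more, 8 of 23 were overlapped in the region, 34.8% (16.4 to 57.3). On the rest of the chromosome 21 of 35 were, 60% (42.1 to 76.1), and in the whole list 58.5% (55.6 to 61.4). Weak peaks were thus overlapped more often than outside, and for strong peaks the share was lower, with an interval that overlaps both others. Luciferase shRNA peaks cover 0.524% of the region and 0.130% of the rest of the chromosome, and the part of this coverage in the share for weak peaks was not tested.

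Luciferase shRNA peaks showed a smaller spread of the same kind. With a fold under 4, ERG shRNA peaks overlapped 18 of 274, 6.57% (3.94 to 10.2), against 3.91% (2.04 to 6.73) on the rest of chromosome 9 and 6.10% of the whole list. With a fold of 6 or more they overlapped 17 of 44, 38.6% (24.4 to 54.5), against 51.1% (35.8 to 66.3) and 54.1%. These intervals overlap, and the differences were not tested. In both lists the overlapped peaks of the region were somewhat higher and wider than the others. The median fold was 4.48 against 4.14 in ERG shRNA and 4.74 against 4.42 in luciferase shRNA, and the median widths were 151 against 117 bp and 230.5 against 177 bp.

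**Figure D3:**
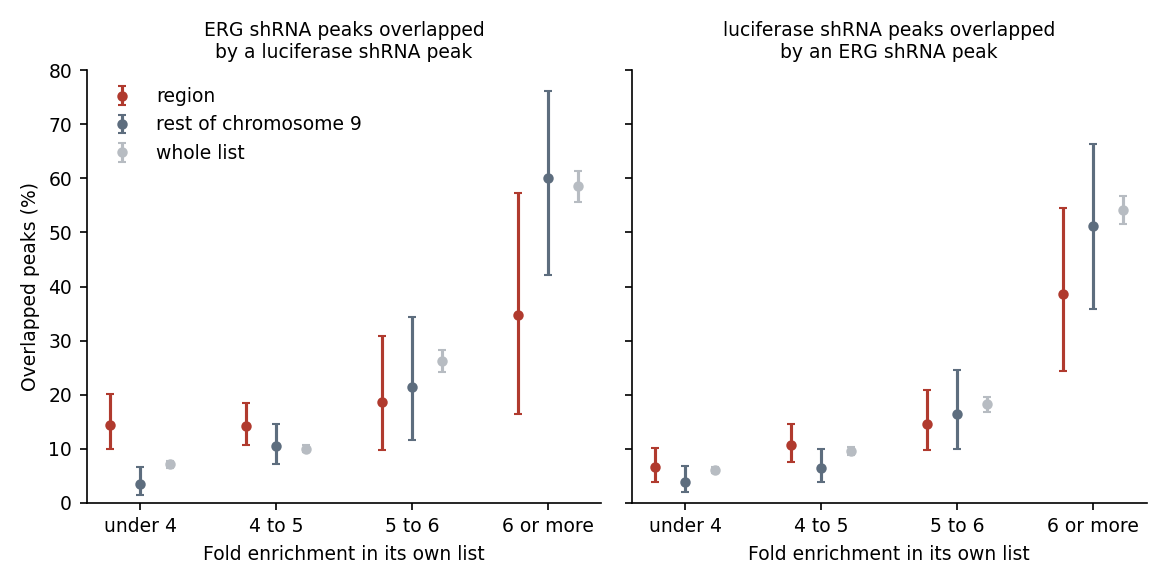
Share of peaks overlapped by a peak of the other long list in percent (vertical axis), by fold enrichment of the peak in its own list (horizontal axis), for the region, the rest of chromosome 9 and the whole list, with exact 95% intervals. For ERG shRNA peaks the region's points run from 14.4% under a fold of 4 to 34.8% at 6 or more, a flatter course than outside, where they run from 3.46% to 60%.

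The strongest overlapped ERG shRNA peaks differed in which library had more tags. At chr9:70359268-70359453 the ERG shRNA peak had 9 tags and a fold of 8.29, and the luciferase shRNA peak 7 tags and a fold of 5.31. This was 1 of the 6 overlaps with more tags in ERG shRNA, although that library is the shallower. At chr9:69669221-69669342 the ERG shRNA peak had 8 tags and a fold of 7.12, and the luciferase shRNA peak 10 tags and a fold of 6.75. At chr9:43558674-43558811 the pair had 8 and 9 tags, and at chr9:66938443-66938579 it had 7 and 6. At chr9:42483663-42484001 the ERG shRNA peak had 8 tags and was 339 bp wide, and the luciferase shRNA peak had 12 tags and was 1202 bp wide, a broad peak that contains it.

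The highest fold of the region in luciferase shRNA was at chr9:41255396-41255562. It had 14 tags and a fold of 9.78 there, and the ERG shRNA peak within it had 6 tags and a fold of 5.75. At chr9:66944227-66944525 all 3 libraries had a peak, with 7.98 scaled tags and a fold of 4.32 in ERG shRNA 2, 7 tags and a fold of 5.98 in ERG shRNA, and 12 tags and a fold of 7.79 in luciferase shRNA. The other place with all 3 was chr9:42794227-42794805. There ERG shRNA 2 had 7.98 scaled tags, ERG shRNA 7 tags, and luciferase shRNA 15 tags, the highest pileup of its list in the region. At chr9:70424067-70424544 the ERG shRNA peak had 4 tags and the luciferase shRNA peak 12.

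Other strong peaks had no partner at all. The ERG shRNA peak at chr9:71676710-71676859, with 9 tags and a fold of 8.29, lay 245 kb from the nearest luciferase shRNA peak, and the one at chr9:71024408-71024568, with 9 tags and a fold of 8.11, lay 45.8 kb away. Such isolation was not general. The one at chr9:42082968-42083126 (8 tags, fold 7.46) lay 4.46 kb from the nearest luciferase shRNA peak, and the one at chr9:42787194-42787348 (7 tags, fold 6.63) only 0.09 kb. The ERG shRNA peak at chr9:68393520-68393739 had the highest pileup of its list in the region, 12 tags with a fold of 7.38. Its nearest luciferase shRNA peak was 13.9 kb away, but an ERG shRNA 2 peak overlapped it.

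In luciferase shRNA the strongest peaks without an ERG shRNA overlap had near neighbours in the other list. The peak at chr9:70486471-70487180 had 12 tags and a fold of 7.90 and lay 0.13 kb from an ERG shRNA peak. The peak at chr9:70859470-70860524 was 1055 bp wide, with 11 tags and a fold of 7.45, and lay 0.17 kb from one. Those at chr9:70409911-70410114 (11 tags, fold 7.82) and chr9:45444677-45444959 (10 tags, fold 7.30) lay 1.25 and 1.42 kb away. The one at chr9:43074845-43075208 (11 tags, fold 7.45) was 7.33 kb from any ERG shRNA peak. Its counterpart about a mirror centre is given with the mirror pairs.

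The 17 ERG shRNA 2 peaks were few, and some lay where the other lists had peaks. Of them, 4 were overlapped by an ERG shRNA peak, 23.5% (6.81 to 49.9), beside 12.0% of the whole ERG shRNA 2 list. A luciferase shRNA peak overlapped 7, 41.2% (18.4 to 67.1), beside 11.8% of the whole list, and either list overlapped 9, 52.9% (27.8 to 77.0), beside 16.9%. Both lists overlapped 2, beside 6.93% of the whole list. The nearest ERG shRNA peak lay within 1 kb for 11 of the 17, beside 17.8% of the whole list, and the nearest luciferase shRNA peak for 10, beside 18.5%. The long lists are several times denser in the region than outside, and the part of that density in these counts was not tested. From the other side, an ERG shRNA 2 peak overlapped 4 ERG shRNA peaks and 7 luciferase shRNA peaks of the region, 0.639% and 0.848%, beside 0.306% and 0.284% of the whole lists.

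The strongest ERG shRNA 2 peaks were a mixed set. The highest fold, 5.54 with 9.08 scaled tags, was at chr9:68436717-68436889, where neither other list had a peak, although an ERG shRNA peak began within 1 kb. Second was chr9:66945658-66945838 with 9.36 scaled tags and a fold of 4.98, also overlapped by neither. Next was chr9:42794353-42794560, one of the 2 places with all 3 libraries. Next again, chr9:68393491-68393835, had 18.17 scaled tags and a fold of 4.75 and overlapped the highest ERG shRNA peak. Last of the 5, chr9:66506797-66506969, with 11.84 scaled tags and a fold of 4.71, overlapped a luciferase shRNA peak only. Of the 17 peaks, 10 had a −log10 q of 0, which is also the median of the whole ERG shRNA 2 list. Peaks were listed by a p cutoff, so q played no part in the listing of any of them.

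In and around the fullest window, a minority of the peaks of both long lists lay at mirror-image positions about nearly the same point. This was found after the data had been seen. All pairs of summits of a library were folded about every possible centre, and the centre with most pairs was sought. In ERG shRNA the best centre of the whole region was position 42750943, with 17 pairs within the 100 bp scan width against 11 at the next. In luciferase shRNA a centre at 42750939.5, which is 3.5 bp away, had 14 pairs and ranked behind only one other, with 15.

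Around this centre a segment of 500 kb to each side holds 126 ERG shRNA and 167 luciferase shRNA peaks. In ERG shRNA 38 of the 126 summits, 30.2% (22.3 to 39.0), had a summit of their own library within 100 bp of their mirror position. In luciferase shRNA 32 of the 167 did, 19.2% (13.5 to 26.0). The centre had been chosen by these pairs, so their number is a description. With the centre moved by up to 25 kb to either side, the number with a partner had a median of 4 in ERG shRNA and 6 in luciferase shRNA beyond 400 bp, and was at most 14 and 20 there. At 50 bp from the centre, inside the 100 bp allowed, it was still 22 and 24 on one side and 16 in each on the other. The luciferase shRNA centre was taken as the one nearest to the ERG shRNA centre among its 10 best, so neither count is independent of the choice.

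**Figure D4:**
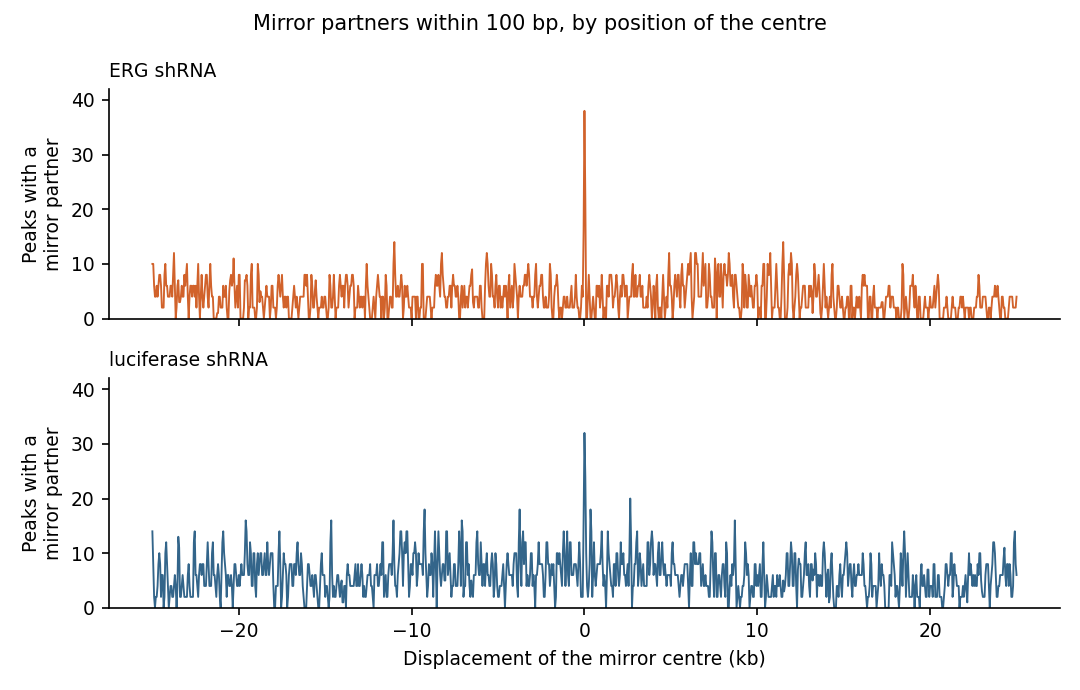
Number of peaks in the segment with a mirror partner within 100 bp (vertical axis) against the displacement of the assumed centre in kb (horizontal axis), in ERG shRNA (top) and luciferase shRNA (bottom). Each library has 1 spike around 0 displacement, with 38 peaks in ERG shRNA and 32 in luciferase shRNA, above values of at most 14 and 20 beyond 400 bp.

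The mirror partners within a library were alike in height. ERG shRNA had 19 pairs, set 292 to 900 kb apart. In all 19 the pileups of the pair were within 1 tag, and in 10 they were equal. Of all 3953 combinations of a left and a right peak of the segment, 72.05% were within 1 tag and 29.6% equal, since most ERG shRNA pileups are 4 or 5. The widths were equal to the base in 8 pairs, 42.1%, of which 5 pairs had both peaks at the smallest width, against 19.3% of all combinations.

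Some ERG shRNA pairs matched base for base in width above the minimum. The peaks at chr9:42480551-42480799 and chr9:43021112-43021360 were both 249 bp wide with 4 tags, and their summits were 6 bp from exact mirror positions. Those at chr9:42588276-42588487 and chr9:42913430-42913641 were both 212 bp wide, with 6 tags and a fold of 5.80 each. Those at chr9:42434389-42434525 and chr9:43067377-43067513 were both 137 bp wide with 4 tags. Each pair is thus a peak on one arm and its like on the other, far along the chromosome. The 3 pairs were chosen after their values were seen.

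Luciferase shRNA had 16 pairs, 86.8 to 837 kb apart. Their pileups were equal in 5 pairs and within 1 tag in 14, or 31.3% and 87.5%, against 19.3% and 53.2% of all 6882 combinations of a left and a right peak. Widths were equal in 1 pair. The strongest pair joined chr9:42426820-42427081, with 10 tags, and chr9:43074845-43075208, with 11 tags. The right-hand peak is among the strongest luciferase shRNA peaks without an ERG shRNA overlap. The largest difference was 9 tags, between a peak of 6 tags at chr9:42707453-42707600 and the peak of 15 tags at chr9:42794227-42794805 that all 3 libraries share.

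**Figure D5:**
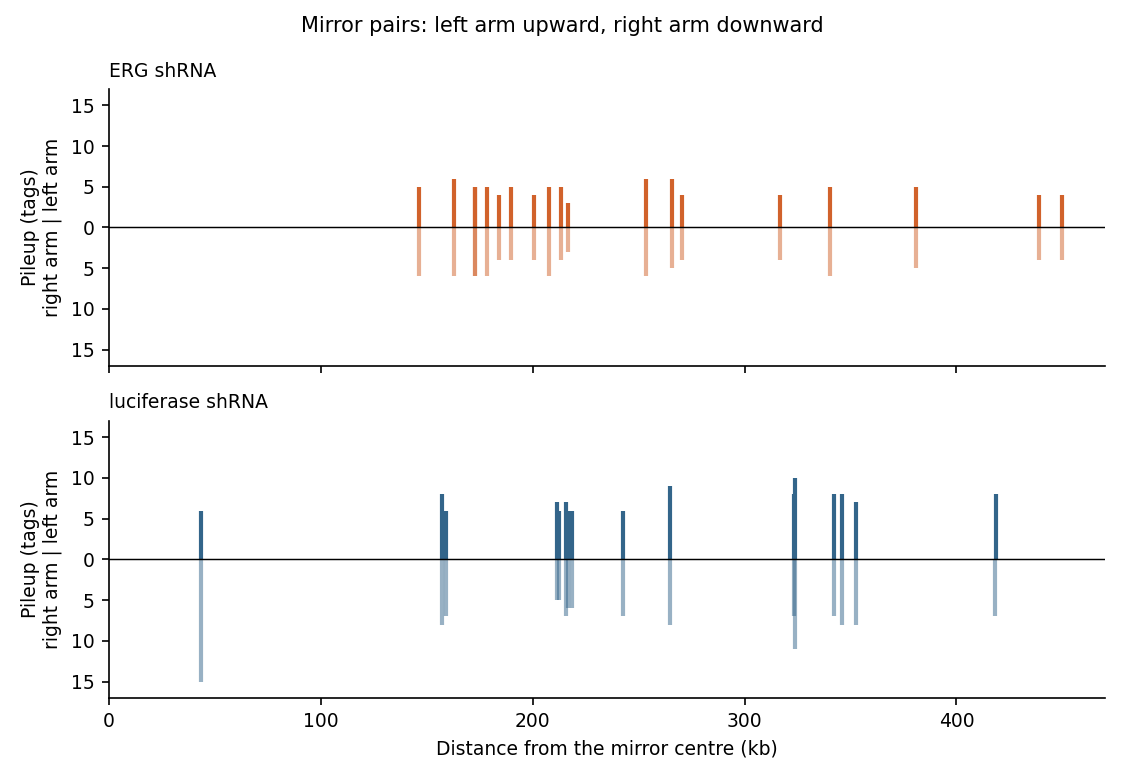
Pileup in tags of each mirror pair against distance from the mirror centre in kb, with the left arm drawn upward and the right arm downward, in ERG shRNA (top) and luciferase shRNA (bottom). All 19 ERG shRNA pairs and 14 of 16 luciferase shRNA pairs are within 1 tag, and the luciferase shRNA pair nearest to the centre has 6 and 15 tags.

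Summits of the other library were also looked for at the mirror positions and at the peaks' own positions. Of the 126 ERG shRNA summits, 5, or 3.97% (1.30 to 9.02), had a luciferase shRNA summit within 100 bp of their mirror position, and 20, or 15.9% (9.97 to 23.4), had one within 100 bp of their own position. Of the 167 luciferase shRNA summits, 5, or 2.99% (0.979 to 6.85), had an ERG shRNA summit at the mirror position and 20, or 12.0% (7.47 to 17.9), at their own. The centre was chosen by pairs within a library, so these counts cannot be set against the 38 and 32 above. Of the 38 ERG shRNA peaks with a mirror partner, a luciferase shRNA peak overlapped 7, 18.4% (7.74 to 34.3), against 23 of the 88 without one, 26.1% (17.3 to 36.6). In luciferase shRNA the shares were 4 of 32, 12.5% (3.51 to 29.0), and 25 of 135, 18.5% (12.4 to 26.1), so the intervals overlap in both.

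Mirror centres recurred between the libraries at 2 further places in the region. Among the 10 centres with most pairs in each library, 3 agree within 100 bp. Besides the one at 42750943, a centre at 56254672.5 in ERG shRNA (11 pairs) and 56254698.5 in luciferase shRNA (15 pairs) falls inside the empty centromeric stretch and links peaks across it. There 8 of the 11 ERG shRNA pairs and 11 of the 15 luciferase shRNA pairs start at 42 to 43 Mb, and 10 and 14 of them end at 69 to 70 Mb. A centre at 56448040.5 in ERG shRNA (10 pairs) and 56448014.5 in luciferase shRNA (14 pairs) links 42 to 43 Mb with 70 to 71 Mb in the same way. Centres that did not recur had up to 11 pairs in ERG shRNA and 13 in luciferase shRNA. The 2 further centres thus differ little from them in number of pairs. For direct rather than mirrored repeats at a fixed distance of over 50 kb, none of the 10 distances with most pairs recurred between the libraries in this region.

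The same search elsewhere gave fewer pairs and no centre in common. On chromosome 9 below 38 Mb the best centres had 4 ERG shRNA and 5 luciferase shRNA pairs, and above 72 Mb 4 and 4. In the duplicated stretch of chromosome 1 at 142 to 150 Mb they had 6 and 7, and in that of chromosome 5 at 68 to 71 Mb 7 and 11. Those stretches hold fewer peaks than the region, 260 ERG shRNA and 295 luciferase shRNA peaks on chromosome 1 and 158 and 280 on chromosome 5, so fewer pairs could form there. Their density is higher, at 32.5 and 36.9 peaks per Mb on chromosome 1 and 52.7 and 93.3 on chromosome 5. Overlap between the long lists was higher on chromosome 5 than in the region, at 30.4% (23.3 to 38.2) of ERG shRNA peaks, against 15.5% (12.7 to 18.6) in the region.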

How the data were processed

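The data are peak lists of 3 p53 ChIP-seq libraries of VCaP cells. Per the submitters' processing notes, the build was hg19 and the tools included MACS2, bedtools, Bowtie2 and Picard 2.14.0. The sources used here do not give the treatment of tags that match several places. The peak caller, per the file headers, was MACS 2.2.7.1, run on 1 library at a time for narrow peaks with a p cutoff of 0.001 and scaled the larger of library and input to the smaller, so ERG shRNA 2 pileups are scaled tags. The input has another name in the ERG shRNA 2 header.

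Pileup, as deposited, is the coverage signal in extended tags where a peak is highest. Fold enrichment, as deposited, divides pileup by local background after adding 1 to both, and so is a ratio. The deposited significance columns hold −log10 of the p-value and the q-value, and their damaged names were read by the order of the MACS layout.

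Members are all peaks with a summit in the region. The members, the comparisons and the lists were chosen with earlier results of these data known. An overlap of 1 bp or more made peaks shared, with exact Clopper-Pearson 95% intervals. Background was recovered as (pileup + 1) / fold − 1. Windows of 1 Mb start at the chromosome start. Named by rule are, by fold, the 5 strongest overlapped and the 5 strongest other peaks of ERG shRNA and of luciferase shRNA, the 5 strongest ERG shRNA 2 peaks, the 5 fullest runs and the peaks at the edges. The stretches on chromosomes 1 and 5 served for comparison. Mirror centres are the 100 bp bins of summit sums with most pairs, over pairs at least 1 kb apart. The overlap rule was tested on lists simulated from the 17986 luciferase shRNA peaks, with 0 misassigned. The mirror search was tested on 60 summits planted with mirror partners among scattered summits, and 0 were missed. False pairs were not counted in that check. Calculations ran in Python 3.11.15 with matplotlib 3.10.9, scipy 1.17.1, pandas 2.3.3 and numpy 2.4.6. Genes were not assigned to peaks, because the gene table is of GRCh38.p14.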

Additional observations from a re-analysis of the deposited data

Results flagged for a closer look

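In 2 windows of the region ERG shRNA and ERG shRNA 2 lie on opposite sides of luciferase shRNA. At 41 to 42 Mb ERG shRNA has 1 peak more than luciferase shRNA (20 against 19), and the count of ERG shRNA 2 minus luciferase shRNA is -18 (1 against 19). At 68 to 69 Mb ERG shRNA has 12 peaks more (31 against 19), and ERG shRNA 2 minus luciferase shRNA is -12 (7 against 19). These differences were not tested. ERG shRNA 2 is below luciferase shRNA in all 17 windows with a peak, since its list holds 433 peaks in all. At 68 to 69 Mb the peaks also sit on a raised background, with a median of 1.97 times the genome-wide level in ERG shRNA and 1.62 times in luciferase shRNA; its part in the counts was not tested.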

How the results depend on the processing

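Of 75 alternatives to 23 results, 46 were labelled as leaving the value unmoved and 29 as moving it. For density ratios, shares and medians, unmoved meant within the counting error of the value. Peak counts and counts of mirror partners had no interval, so their label says nothing about counting error. Without the window at 42 to 43 Mb, 494 of 626 ERG shRNA and 656 of 825 luciferase shRNA peaks remained. Both of these counts were labelled unmoved. Limiting the lists to a −log10 q of at least 5 left 0, 14 and 35 peaks in ERG shRNA 2, ERG shRNA and luciferase shRNA, and a fold of at least 5 left 1, 82 and 215. At −log10 q of at least 5 the ERG shRNA density ratio was 1.31, the median spacing 690 kb in ERG shRNA and 127 kb in luciferase shRNA, the median pileup 8 and 10 tags, the median width 157 and 262 bp, the ERG shRNA background 1.00 and the overlapped share of luciferase shRNA peaks 5.71%; ERG shRNA 2 gives no values there, having no such peak. The filter keeps only high peaks, and the cause of these moves was not tested. The density ratio was 6.37 in ERG shRNA and 7.02 in luciferase shRNA over occupied windows, 3.77 in ERG shRNA 2 and 4.40 in luciferase shRNA against the other main chromosomes, and 2.61 and 2.90 in ERG shRNA and luciferase shRNA without the window at 42 to 43 Mb, where ERG shRNA spacing was 7.89 kb. The overlapped share of ERG shRNA and luciferase shRNA peaks was 6.55% and 4.97% with a reciprocal overlap of 50%, and 11.2% and 8.48% with summits within 100 bp. With a gap of up to 1000 bp it was 38.2% and 31.6%, and 88.2% (63.6 to 98.5) of the 17 ERG shRNA 2 peaks were near either list. Of the whole ERG shRNA 2 list, 17.8% lay that near an ERG shRNA peak and 18.5% that near a luciferase shRNA peak. For the other shares of these alternatives no whole-list share is given, so they describe the region alone. The cause of the changes in density ratio was not tested. Added after the data were seen, partners within 50 bp of the mirror position numbered 34 and 26, and within 200 bp 38 and 40. No paired analysis was possible because no group has a second library. Pileups of 4 to 6 tags near the listing limit restrict what the overlap can show in both long lists.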

Other observations

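Direct repeats at a fixed distance recurred between the libraries in the stretch of chromosome 1 that served for comparison. Of the 10 distances with most summit pairs in each library, 2 agree within 100 bp, at 68544 and 376507 bp, with at most 8 pairs in ERG shRNA and 9 in luciferase shRNA at any distance there. In the chromosome 9 region the distances with most pairs had 16 in ERG shRNA and 22 in luciferase shRNA, and none of the 10 in each list agreed.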
